A study of Mus musculus with 8 samples.

Results

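The genes described here are the 40 cell cycle and proliferation genes of a mouse esophagus RNA-seq table, which holds 32849 gene symbols in all. They were chosen by symbol, as genes of DNA replication and mitosis whose transcripts report dividing cells, and the rule that lists them uses no measured value, although it was written with earlier results of these data known. All 40 were found in the table. By role, 15 belong to S phase and its onset and 25 to mitosis.

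The 8 libraries came from frozen esophagus of healthy, untreated mice, 4 of the genotype MGL KO and 4 of the genotype MGL WT. MGL KO mice carry a global deletion of monoacylglycerol lipase (gene Mgll), the enzyme that hydrolyses the endocannabinoid 2-arachidonoylglycerol, and were bred in-house with WT littermates. Both sexes were used in the study, and the labels give neither sex nor age for a library. The sources used here do not say whether whole esophagi or pieces were taken for RNA. The RNA mixes epithelium, muscle and other cells. In such bulk RNA fewer dividing cells and less RNA per dividing cell cannot be told apart.

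Cells commit to division in G1, when D and E cyclins and their kinase partners release E2F factors from the RB proteins. E2F targets for DNA synthesis are then transcribed. The MCM helicase is loaded on replication origins, nucleotides are supplied by ribonucleotide reductase and thymidylate synthase, and PCNA clamps the polymerases to DNA. A later wave, held back in resting cells by the DREAM complex and driven by B-MYB, FOXM1 and the MuvB core, supplies the cyclins, kinases, motors and checkpoint proteins of mitosis. In the esophagus the dividing cells of the squamous epithelium sit in the basal layer, which expresses keratins 5 and 14, while the suprabasal layers differentiate.

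The 2 waves are known for different promoter elements, and the promoters of 8 members are shown to let these be seen. Each run is the 170 bases before the start of the gene's canonical transcript on GRCm39 (GENCODE M39), 5′ to 3′ on the gene's strand. The annotated genes Mcm6, Cdk1, Top2a and Ube2c begin upstream of that start. Part of the run of Mcm6, Top2a and Ube2c and all of that of Cdk1 thus lie within the gene. Capitals mark letters of an E2F site (TTTGGCGC, TTTCCCGC, TTTGCCGC or TTTCGCGC), a cell cycle homology region or CHR (TTTGAA or TTTAAA) or a CCAAT box (CCAAT), each searched on both strands, where runs of capitals can hold overlapping matches. The first 3 are genes of the MCM helicase, whose promoters hold E2F sites, and the next 5 are genes of mitosis.
Mcm4, chr16:15455265-15455434, minus strand: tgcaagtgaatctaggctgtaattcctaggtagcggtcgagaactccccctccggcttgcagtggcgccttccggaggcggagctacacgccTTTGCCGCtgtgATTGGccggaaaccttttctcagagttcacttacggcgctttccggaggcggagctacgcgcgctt
Mcm5, chr8:75835970-75836139, plus strand: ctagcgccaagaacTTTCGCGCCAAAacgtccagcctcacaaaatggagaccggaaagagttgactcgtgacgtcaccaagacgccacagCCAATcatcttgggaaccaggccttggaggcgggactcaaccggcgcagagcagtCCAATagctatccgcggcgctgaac
Mcm6, chr1:128287453-128287622, minus strand: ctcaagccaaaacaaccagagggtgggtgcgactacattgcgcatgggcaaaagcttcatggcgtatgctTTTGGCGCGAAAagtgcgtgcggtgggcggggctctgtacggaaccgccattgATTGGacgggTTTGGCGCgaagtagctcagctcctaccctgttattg
Cdk1, chr10:69188769-69188938, minus strand: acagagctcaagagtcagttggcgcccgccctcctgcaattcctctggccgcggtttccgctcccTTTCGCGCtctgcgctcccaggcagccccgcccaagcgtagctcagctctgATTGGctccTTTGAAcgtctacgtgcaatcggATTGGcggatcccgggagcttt
Ccnb2, chr9:70328875-70329044, minus strand: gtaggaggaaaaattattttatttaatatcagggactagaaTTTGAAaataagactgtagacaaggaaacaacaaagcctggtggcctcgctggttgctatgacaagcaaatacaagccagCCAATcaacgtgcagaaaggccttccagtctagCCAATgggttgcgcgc
Plk1, chr7:121758476-121758645, plus strand: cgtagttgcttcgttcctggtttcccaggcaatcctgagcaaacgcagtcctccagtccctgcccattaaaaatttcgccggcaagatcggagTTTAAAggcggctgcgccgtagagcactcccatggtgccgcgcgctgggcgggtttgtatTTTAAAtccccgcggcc
Top2a, chr11:98915042-98915211, minus strand: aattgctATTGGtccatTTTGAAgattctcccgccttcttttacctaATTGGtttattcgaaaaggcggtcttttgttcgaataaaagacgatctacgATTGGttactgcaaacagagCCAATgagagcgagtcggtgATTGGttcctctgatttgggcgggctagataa
Ube2c, chr2:164611648-164611817, plus strand: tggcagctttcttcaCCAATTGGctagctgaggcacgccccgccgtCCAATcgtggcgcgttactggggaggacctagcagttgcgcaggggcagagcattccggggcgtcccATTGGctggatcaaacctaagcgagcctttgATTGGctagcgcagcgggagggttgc
In the Cdk1 promoter a CHR lies 40 to 45 bases before the start, 4 bases from a CCAAT box. Over the 250 bases before the start, an E2F site was found in 3 of 15 S phase members (20%), Mcm4, Mcm5 and Mcm6, in 1 of 25 mitosis members (4%), Cdk1, and in 2.42% of 19328 protein-coding genes of the table. A CHR was found in 3 of 15 S phase members (20%) and in 14 of 25 mitosis members (56%), beside 23.2% of all genes. CCAAT boxes were found in 53.3% of S phase members, 52% of mitosis members and 36% of all genes. Within 100 bases of the start a CHR was found in 6.67% of S phase members, 12% of mitosis members and 7.42% of all genes. A match says that the letters are there, not that a factor binds.

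Library totals ran from 13479069 to 17090152 counts, and 14864 genes passed the filter on low counts and were tested. Mgll checked the labels: it was at 12.6, 16, 13.1 and 13.2 CPM (the read count scaled to a common library size, here by TMM) in MGL KO libraries 1 to 4 and at 83.3, 66.6, 88.3 and 86.7 in MGL WT. The groups were far apart (log2 fold change −2.57 ± 0.13 SE, adjusted p = 0.000133). The basal keratin Krt5 was at 1257 CPM or more in every library, and the skeletal muscle markers summed to at least 57810 CPM. MGL KO library 4 stood apart by airway markers, with 9901 CPM of airway secretory and gland markers against at most 57.5 elsewhere. The labels do not name the mouse behind each library, while the study counts esophagi as its replicates for this assay, and p-values measure the spread between these libraries.

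The comparison asks whether cell cycle transcripts of the resting esophagus differ with MGL. None of the 40 members, all of which were tested, was called at an adjusted p under 0.05 by the edgeR quasi-likelihood test, where 0.0471% of all tested genes were called (7 of 14864). The lowest adjusted p was 0.478, for Ube2c. At an unadjusted p under 0.05 the count was 1 of 40, beside 8.65% of all genes. No other test that was run (edgeR exact test, DESeq2, limma-voom with sample quality weights) called a member. In no member did all 4 MGL KO libraries lie on one side of all 4 MGL WT libraries, which 6.02% of all genes did. The fitted differences themselves lay mostly on one side of 0: 37 of 40 members were fitted higher in MGL KO, with a median log2 fold change of 0.31, against 53% and a median of 0.02 over all genes tested.

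The median was 0.20 over the 15 S phase members, of which 12 were fitted higher, and 0.36 over the 25 mitosis members, all fitted higher. The median standard error over the 40 genes was 0.26, close to the size of the fitted differences. The members' mean log2 CPM had an SD of 0.33 between libraries of one genotype. It was 0.26 for the S phase members and 0.41 for the mitosis members. Each SD was larger than the median of the same genes. The 95% intervals bound what the libraries allow: 11 of 40 still held a doubling (a log2 fold change of 1), 36 of 40 held 0.5, and 1 lay wholly above 0.

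**Figure D1:**
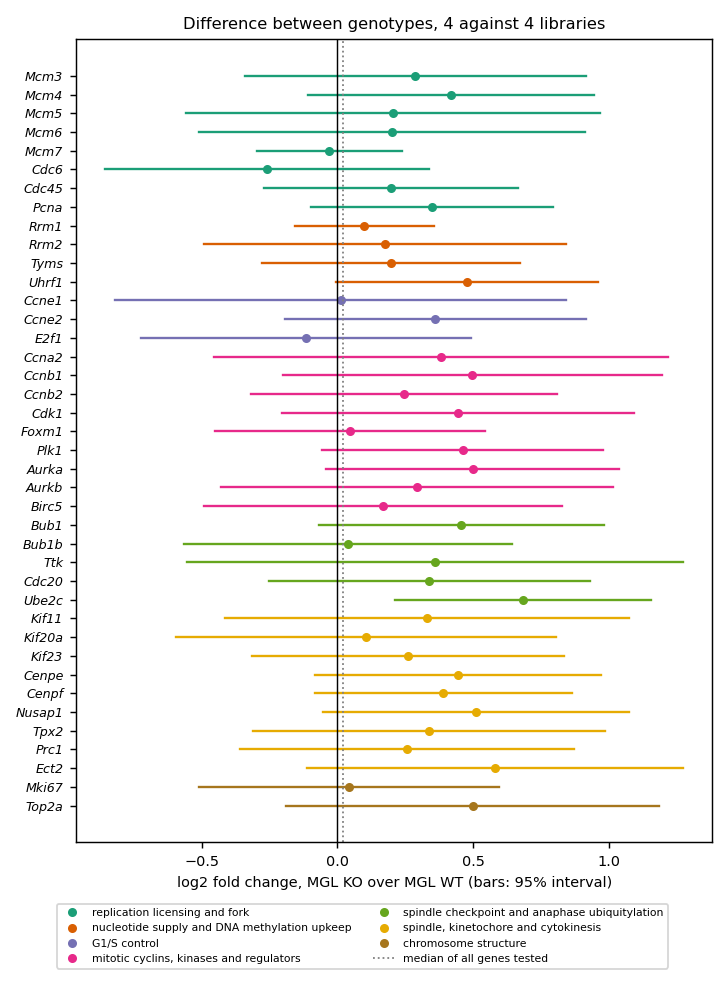
Log2 fold change of each member, MGL KO over MGL WT (x axis, points), with its 95% interval (bars), coloured by role, and the median of all genes tested as a dotted line. Of 40 points, 37 lie right of 0, and the interval of 1 gene, Ube2c, lies wholly above 0.

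Among the 8 genes of replication licensing and the fork, 6 were fitted higher, with a median of 0.20. Mcm4, a subunit of the MCM helicase, had the smallest p of them. Its level was 18.3, 27.3, 14.2 and 18.7 CPM in MGL KO libraries 1 to 4 and 19.9, 13.5, 11.6 and 13.6 CPM in MGL WT. Library 1 of MGL WT thus lay above 3 of the 4 MGL KO libraries, and the log2 fold change was 0.42 ± 0.23 SE (adjusted p = 0.646). Mcm5, a further subunit, was at 13, 9.84, 16 and 21.2 CPM in MGL KO and at 22.2, 11.1, 8.35 and 10.6 CPM in MGL WT (0.20 ± 0.34, adjusted p = 0.867). The highest library of all was a WT library, and the next was MGL KO 4. Pcna was at 30.9, 46.0, 23.3 and 30.8 CPM in MGL KO against 28.7, 23.1, 27.3 and 23.7 CPM in MGL WT (0.35 ± 0.20, adjusted p = 0.649). Its WT libraries were close together, while MGL KO 2 stood above the other 7. Mcm7 was the steadiest of this group, between 31.0 and 40.5 CPM in all 8 libraries. Mcm7 (−0.03) and the loading factor Cdc6 (−0.26) were fitted lower in MGL KO, both with intervals that span 0.

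All 4 genes of nucleotide supply and DNA methylation upkeep were fitted higher, with a median of 0.19. Uhrf1, which brings the maintenance methyltransferase to newly copied DNA, was at 15.6, 17.4, 18.9 and 23.2 CPM in MGL KO and at 18.2, 13.4, 9.34 and 12.8 CPM in MGL WT. Its log2 fold change was 0.48 ± 0.21, with an unadjusted p of 0.0516 and an adjusted p of 0.58, and WT library 1 again fell among the KO values. Rrm2, the S phase subunit of ribonucleotide reductase, was at 11.6, 19.7, 13.1 and 10.2 CPM in MGL KO and 18.5, 12, 9.20 and 8.48 CPM in MGL WT (0.18 ± 0.29, adjusted p = 0.871). Its partner Rrm1, whose protein is long-lived, was level in MGL KO at 44.4 ± 0.668 CPM (SD, n = 4) beside 41.5 ± 6.07 CPM in MGL WT.

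The 3 genes of G1/S control were low and had no common direction, with a median of 0.01. Ccne1, a cyclin E, was at 2.02, 3.25, 1.48 and 2.59 CPM in MGL KO and 3.74, 2.06, 1.91 and 1.5 CPM in MGL WT (0.01 ± 0.37, adjusted p = 0.993). Its direction turned under several settings. Ccne2, the other cyclin E, was at 3.43, 6.32, 4.38 and 5.12 CPM in MGL KO against 3.96, 3.20, 4.34 and 3.46 CPM in MGL WT (0.36 ± 0.24, adjusted p = 0.688). The factor E2f1 was at 4.04, 7.94, 5.61 and 6.80 CPM in MGL KO and 8.81, 4.97, 5.85 and 6.78 CPM in MGL WT. Its ranges overlapped, and E2f1 was fitted lower (−0.12 ± 0.27, adjusted p = 0.909).

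The 9 mitotic cyclins, kinases and regulators were all fitted higher in MGL KO, with a median of 0.38. Cdk1, the kinase that starts mitosis, was at 14.6, 22.5, 14.9 and 14.2 CPM in MGL KO and 18.7, 12.3, 7.30 and 10.2 CPM in MGL WT (0.44 ± 0.29, adjusted p = 0.68). Its cyclin Ccnb1 was at 24.0, 22.7, 30.0 and 30.0 CPM in MGL KO and 28.0, 23.1, 8.94 and 15.6 CPM in MGL WT (0.50 ± 0.31, adjusted p = 0.665). For both genes WT libraries 3 and 4 lay below every KO library and WT library 1 did not. Aurka, the centrosomal Aurora kinase and the lowest p of the 9, was at 11.4, 14.2, 14.1 and 14.6 CPM in MGL KO and 13.7, 9.93, 6.05 and 8.61 CPM in MGL WT. Only KO library 1 and WT library 1 crossed (0.50 ± 0.24, unadjusted p = 0.067, adjusted p = 0.612). Plk1, a kinase of centrosomes and mitotic exit, was at 12.3, 14.4, 14.0 and 16.7 CPM in MGL KO and 13.7, 12, 6.58 and 9.39 CPM in MGL WT, with the same crossing (0.46 ± 0.23, adjusted p = 0.62). Aurkb, the kinase of the chromosomal passenger complex, was at 11.1, 9.84, 15 and 15 CPM in MGL KO and 15.6, 13, 5.92 and 7.11 CPM in MGL WT (0.29 ± 0.32, adjusted p = 0.794). Foxm1, the transcription factor of the mitotic wave, showed no such gap, at 10.9, 11.8, 16.5 and 13.8 CPM in MGL KO and 16.2, 15.2, 9.27 and 10.7 CPM in MGL WT. Its log2 fold change of 0.05 ± 0.22 had an interval of −0.45 to 0.55.

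Of the 5 genes of the spindle checkpoint and anaphase ubiquitylation, all were fitted higher, with a median of 0.36. Ube2c, the ubiquitin-conjugating enzyme that works with the anaphase-promoting complex, had the largest fitted difference of the 40. It was at 26.8, 40.1, 30.8 and 23.5 CPM in MGL KO and at 23.6, 21.0, 14.8 and 15.9 CPM in MGL WT. The groups touched at KO library 4 and WT library 1, which were 23.5 and 23.6, and the log2 fold change was 0.68 ± 0.21 (unadjusted p = 0.00957, adjusted p = 0.478). Under RLE factors or library size alone Ube2c was the 1 member of 40 whose groups did not overlap, beside 6.05% and 5.13% of all genes. Its exons share 616 bases on GRCm39, or 19% of their merged length, with those of Tnnc2 on the opposite strand, the troponin C of fast muscle. The same bases are 68.7% of the merged exons of Tnnc2. Tnnc2 was listed at 1.1 to 3.52 CPM, while the fast muscle troponins Tnni2 and Tnnt3 were at 1820 to 6770 and 4590 to 14500 CPM. KO library 2, the highest for Ube2c, also had the highest skeletal muscle sum, 128900 CPM. WT library 3, the lowest for Ube2c, had the next highest muscle sum, 111200 CPM, and KO library 4 the lowest, 57810 CPM. With the skeletal muscle list as a covariate the log2 fold change of Ube2c was 0.68 (adjusted p = 0.214). How the counting assigned reads in shared exons is not given in the sources used here, and the part of Tnnc2 reads in the Ube2c count was not tested. Among the other 4, Bub1b, a component of the mitotic checkpoint complex, differed least (0.04 ± 0.27).

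The 9 genes of spindle, kinetochore and cytokinesis were likewise all fitted higher, with a median of 0.34 and a range of 0.11 (Kif20a) to 0.58 (Ect2). Nusap1, which bundles spindle microtubules, had the smallest p, at 15.9, 22.0, 22.3 and 21.9 CPM in MGL KO and 21.4, 15.4, 9.86 and 10.9 CPM in MGL WT (0.51 ± 0.25, unadjusted p = 0.0705, adjusted p = 0.615). KO library 1 lay below WT library 1, and the other 3 KO libraries lay above all WT libraries. Ect2, the exchange factor that sets the cleavage furrow, had a fitted value of 0.58 ± 0.31 and an interval of −0.11 to 1.27.

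The 2 genes of chromosome structure parted in size. Mki67, the antigen used most widely to mark dividing cells, was at 74.8, 84.1, 88.7 and 84.1 CPM in MGL KO and 121, 89.2, 49.9 and 62.1 CPM in MGL WT. The KO values sat inside the WT range, and the means were 82.9 ± 5.84 and 80.4 ± 31.4 CPM (SD, n = 4; log2 fold change 0.04 ± 0.24, interval −0.51 to 0.60). Library size alone in place of TMM turned its sign. Top2a, the topoisomerase that untangles replicated chromosomes, was at 52.2, 78.2, 67.2 and 69.7 CPM in MGL KO and 73.6, 54.7, 24.3 and 36.4 CPM in MGL WT. Its means were 66.8 ± 10.8 and 47.3 ± 21.6 CPM, and the log2 fold change was 0.50 ± 0.30 (adjusted p = 0.665).

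**Figure D2:**
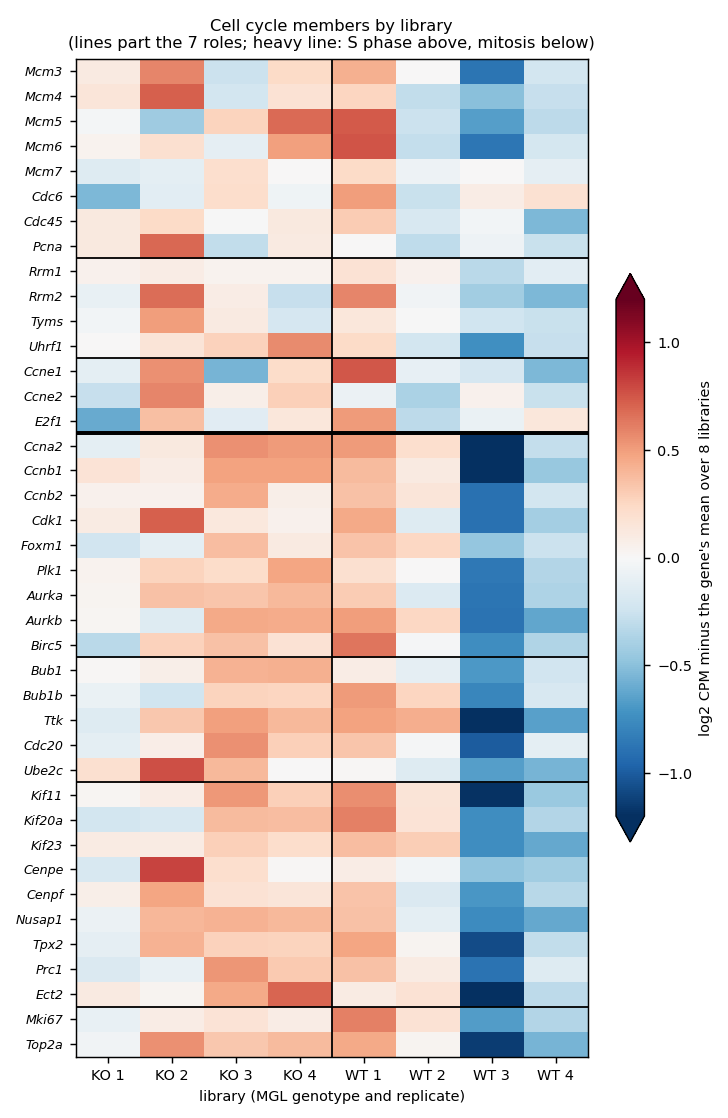
Log2 CPM of each member (rows, by role) in each library (columns), minus the gene's mean over the 8 libraries, red above and blue below that mean. The column of WT library 3 is the lowest for all 25 mitosis genes, and the column of WT library 1 is mostly red.

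A pattern shared by most members lay between the WT libraries. WT library 3 was the lowest of all 8 for every one of the 25 mitosis members, and for 6 of the 15 S phase members, where it was lowest for 15.5% of all tested genes. WT library 1 was the highest WT library for 38 of 40 members, and the highest of all 8 for 16 of 40, beside 14.9% of all genes. The KO libraries also differed: library 1 was the lowest of them for 22 of 40 members, and library 2 the highest for 10 of 15 S phase members. KO library 2 was the lowest of all 8 for 0 of 40 members, beside 29.4% of all genes. The median ratio of highest to lowest WT library was 2.47 over the mitosis members and 1.77 over the S phase members, against 1.5 and 1.8 between the KO libraries. On the log scale the SD was larger in MGL WT than in MGL KO for 23 of 25 mitosis members (92%) and 9 of 15 S phase members (60%), where it was larger in MGL WT for 29.5% of all genes. Dispersion between libraries was not compared by a test.

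The same shows in sums. The mitosis members summed to 496, 612, 643 and 606 CPM in MGL KO libraries 1 to 4 and to 677, 534, 279 and 390 CPM in MGL WT libraries 1 to 4. The S phase members summed to 227, 281, 229 and 259 CPM in MGL KO and to 286, 208, 182 and 196 CPM in MGL WT. WT library 1 was highest in both sums and WT library 3 lowest. The mitosis sum per S phase sum was 1.54 in WT library 3, below the 1.99 to 2.57 of the other WT libraries and the 2.18 to 2.80 of MGL KO.

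The medians moved with single WT libraries. Without WT library 3 the median log2 fold change was 0.12 in place of 0.31, with 31 of 40 fitted higher, and that of the mitosis members 0.13 in place of 0.36. Without WT library 1 the medians were 0.54 over all members and 0.60 over the mitosis members. In that setting 11 of 40 members (Mcm4, Mcm6, Cdc45, Uhrf1, Cdk1, Plk1, Aurka, Bub1, Ube2c, Cenpf and Nusap1) no longer overlapped between groups, all higher in MGL KO, beside 9.27% of all genes. Without KO library 1 the count was 5, beside 8.2% of all genes, and without KO library 4 and WT library 1 together it was again 11, beside 14.8% of all genes. Without any other single library the count was 0 or 1, where the share over all genes was not computed. No member was called in any of these fits.

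Between genotypes, all 6 fibroblast markers were fitted lower in MGL KO (median −0.33, none called, 2 at an unadjusted p under 0.05), with the groups of 1, Dcn, not overlapping, beside 8.65% and 6.02% of all genes. Of the 6 macrophage and myeloid markers 5 were fitted lower (median −0.87, none called, 4 at an unadjusted p under 0.05 beside the same 8.65%), and of the 10 basal squamous markers 5 (median −0.02). B cell markers were fitted lower in 4 of 5 (median −1.34) and adipocyte markers higher in 5 of 5 (median 0.40), with none at an unadjusted p under 0.05 in either list. Airway ciliated markers were fitted higher in 5 of 5 tested (median 3.46) and airway secretory and gland markers in 2 of 2 (median 9.56). None was called, and 3 and 2 had an unadjusted p under 0.05, beside 8.65% of all genes. The groups of 1, Ltf, did not overlap, beside 6.02% of all genes. All 8 and all 6 listed were highest in KO library 4. Cell type markers also differed between libraries of a genotype. WT library 1 was highest for 5 of 6 B cell, 5 of 6 macrophage and myeloid and 5 of 8 T cell markers. B cell markers summed to 128 CPM there against 1.71 to 18.5 CPM in the other WT libraries and 4.01 to 41.2 CPM in MGL KO. Macrophage and myeloid markers summed to 1016 CPM in WT library 1, 1491 CPM in KO library 4, of which Lyz2 made 1397, and 212 to 478 CPM in the other 6. T cell markers stayed at or below 15.4 CPM in sum, with Ptcra at 0 in every library. WT library 3 had the lowest immune sums of the WT libraries and the lowest basal squamous sum, 3567 CPM against 5044 to 5286, and its suprabasal squamous sum was also the lowest of them, 3153 CPM against 6867 to 15750. KO library 2 had a still lower basal and suprabasal squamous sums, 3257 and 2216 CPM, with a member sum of 893 CPM, the second highest of the 8. Members per basal squamous sum were 12.2%, 27.4%, 16.6% and 17.5% in MGL KO and 19.1%, 14.0%, 12.9% and 11.3% in MGL WT, and the groups overlapped. With the basal squamous list as a covariate the median of the members was 0.32, and with the skeletal muscle list 0.30. With KO library 4 and WT library 1 both left out it was 0.49. The part of immune cells in the level of WT library 1, and of fibroblasts, macrophages, B cells, adipocytes and airway cells in the members' differences, was not tested.

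**Figure D3:**
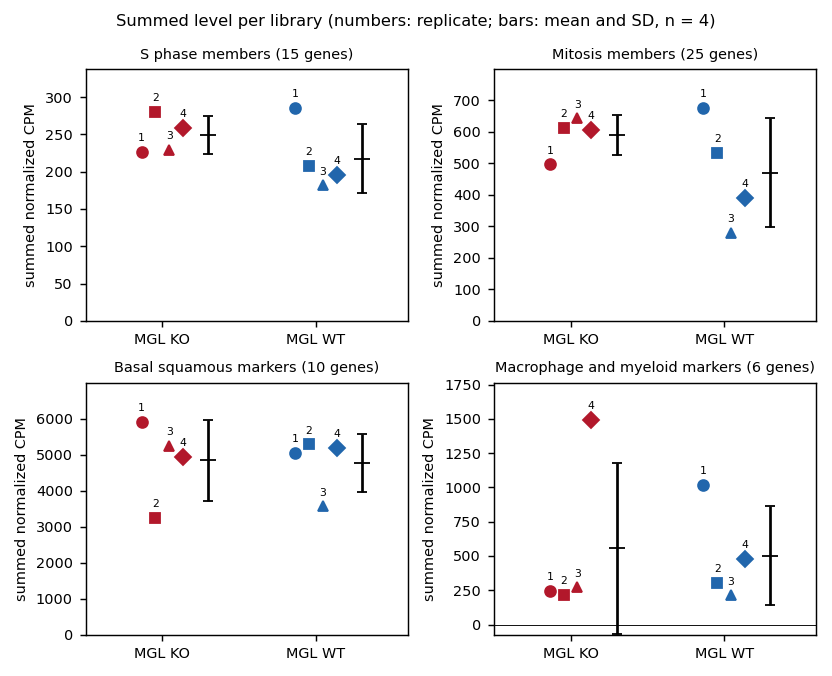
Summed normalized CPM (y axis) of the S phase members, the mitosis members, the basal squamous markers and the macrophage and myeloid markers in each library, numbered by replicate, with the mean and SD of each genotype (bars, n = 4). The mitosis sum runs from 279 to 677 in MGL WT and from 496 to 643 in MGL KO.

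Per kilobase of merged exons, which allows levels of different genes to be set side by side, the members spanned a wide range in MGL WT. Cdc20, the activator of the anaphase-promoting complex, was highest at 17.1 ± 5.89 CPM per kilobase (SD, n = 4). Pcna followed at 10.7 ± 1.14, Mki67 at 7.81 ± 3.05 and Ccnb2 at 7.20 ± 2.45 CPM per kilobase. The lowest were Ccne2 (0.665), Ccne1 (0.633), the checkpoint kinase Ttk (0.620) and Cdc6 (0.603 CPM per kilobase). In that order 37 of 39 neighbours were closer than the larger of their SDs, so most ranks are not resolved. The exceptions were the steps from Cdc20 to Pcna and from Bub1 to Ccne2. Counted per kilobase of the canonical transcript instead, Ube2c came first at 19.5, ahead of Cdc20 at 18.0, because its canonical transcript is 0.967 kilobases long and its merged exons 3.24. Birc5 moved from rank 17 (3.17) to rank 4 (14.7), and Mki67 from rank 3 to rank 9 at an unchanged 7.81, so the order depends on the length used.

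**Figure D4:**
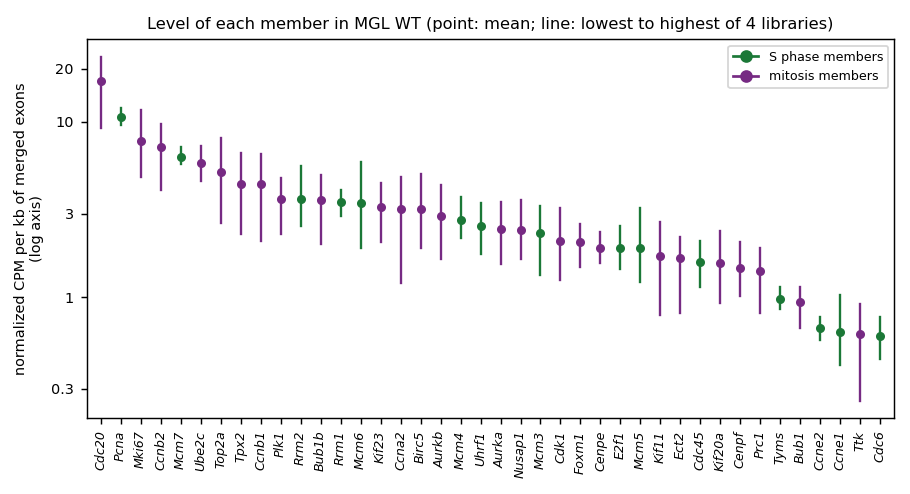
Normalized CPM per kilobase of merged exons in MGL WT (y axis, log scale) for each member (x axis), as the mean (point) and the lowest to highest of 4 libraries (line). Cdc20 leads at 17.1, and G1/S cyclins lie at the low end with Ttk and Cdc6.

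Exons of 18 members overlap those of a gene on the opposite strand and exons of 3 a gene on the same strand. The largest shares were 54.8% of Kif20a with Cdc23, 43.3% of Rrm2 with Gm59512 and 25.2% of Aurka with Fam210b, and strand use in the counting is not given in the sources used here. Over the 21 members with no such overlap the median log2 fold change was 0.26, with 19 of 21 fitted higher.

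Of 134 other cell cycle genes on 5 lists, 131 were tested and none was called by the quasi-likelihood test (7 at an unadjusted p under 0.05, beside 8.65% of all genes). The groups of 3 of the 131, Rbl2, Tob1 and Cdkn1a, did not overlap, beside 6.02% of all genes, so neither count lay above the share of the whole table. Other genes of G2 and mitosis, such as condensins, kinesins and centromere proteins, went the way of the mitosis members in sign, with 54 of 57 fitted higher and a median of 0.27. Other S phase genes had a median of 0.12, with 24 of 35 fitted higher. The E2F, RB and MuvB list, the regulators rather than the targets, had a median of 0.0041 with 9 of 17 fitted higher. Among these, Rbl2, the pocket protein p130 of resting cells, was lower in every KO library, at 33.2, 29.6, 33.5 and 33.4 CPM in MGL KO and 36.0, 34.4, 36.4 and 35.3 CPM in MGL WT, although the difference was small (−0.13 ± 0.09, adjusted p = 0.681). Myc was at 42.9, 35.6, 45.6 and 39.8 CPM in MGL KO and 38.5, 47.1, 43.3 and 44.9 CPM in MGL WT (−0.08 ± 0.11, adjusted p = 0.823). Ccnd1, the D cyclin that growth signals induce, was at 24.6, 15.3, 24.9 and 39.9 CPM in MGL KO and 27.1, 21.4, 18.0 and 34.1 CPM in MGL WT, and its direction turned when single libraries were left out (0.06 ± 0.29, adjusted p = 0.961).

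The cell cycle inhibitors and antiproliferative genes held 5 of the 7 genes at an unadjusted p under 0.05, all 5 fitted higher, of 14 tested and beside 8.65% of all genes, and the median of the list was 0.18. Cdkn1a, the p21 inhibitor of cyclin-dependent kinases, was at 290, 396, 305 and 220 CPM in MGL KO and 167, 199, 192 and 154 CPM in MGL WT. Every KO library lay above every WT library, with a log2 fold change of 0.77 ± 0.18, but Cdkn1a did not pass the correction (adjusted p = 0.37). Tob1, an antiproliferative partner of the CCR4-NOT deadenylase, was at 189, 205, 164 and 155 CPM in MGL KO and 111, 113, 123 and 105 CPM in MGL WT, again without overlap (0.66 ± 0.12, adjusted p = 0.212). Tob1 was called by the edgeR exact test (adjusted p = 0.00929), limma-voom with sample quality weights (adjusted p = 0.0258) and DESeq2 (adjusted p = 0.000128), and Cdkn1a, of the tests run here, by DESeq2 alone (adjusted p = 0.0159). Over the 23 alternatives the adjusted p ran from 0.000128 to 0.769 for Tob1 and from 0.0159 to 0.843 for Cdkn1a. The other 3 were Wee1, the kinase that holds CDK1 inactive, at 0.76 ± 0.27, and the inhibitors Cdkn2b at 0.77 ± 0.33 and Cdkn1c at 0.45 ± 0.20. Their groups overlapped.

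**Figure D5:**
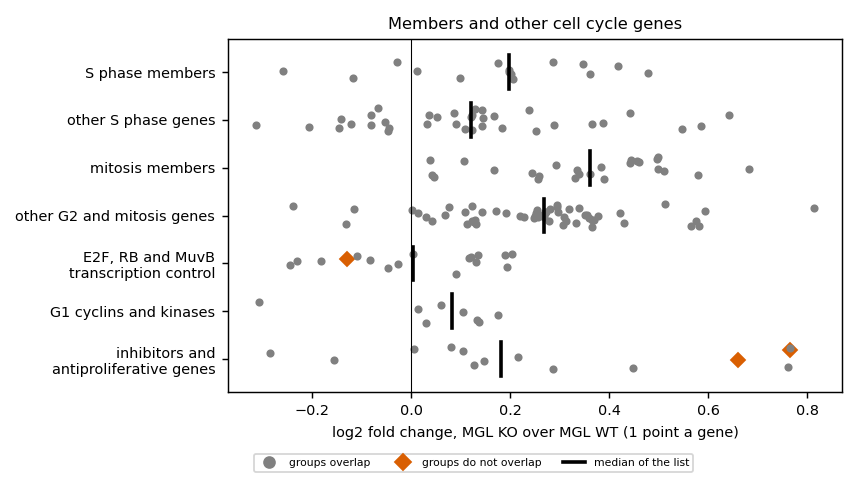
Log2 fold change, MGL KO over MGL WT (x axis), of each tested gene (points) in the member groups and the 5 other lists (y axis), with the median of each list (black bars). Orange diamonds mark the 3 genes whose groups do not overlap, Rbl2 on the left and Tob1 and Cdkn1a on the right, of 131 tested on the 5 other lists, beside 6.02% of all genes.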

How the data were processed

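RNA from frozen esophagus was poly(A)-selected and sequenced on Illumina instruments. Per the labels and the study's methods, the authors checked reads with FastQC 0.11.9, trimmed them with cutadapt and aligned them with STAR 2.7.10b to GRCm39. They deposited 1 table of raw gene counts for 8 libraries. The counting tool and its strand setting are not given in the sources used here. No column of the table was left unmapped.

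Here edgeR 4.0.16 (R 4.3.3) filtered genes with filterByExpr (minimum count 10), computed TMM factors and ran the quasi-likelihood test with Benjamini-Hochberg adjustment over all 14864 genes tested, at a threshold of 0.05. CPM are counts scaled by the effective library size, so 3 counts correspond to 0.167 to 0.271 CPM. Member counts ran from 23 to 2162 per library. Log2 CPM used a prior count of 1. No pair of libraries of the same genotype agreed within sampling noise (lowest chi-square per degree of freedom 14.2). Positions, lengths and promoters came from GENCODE M39, which matched 30552 of 32849 symbols and all 40 members. The scripts were tested on simulated data.

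The members were listed by symbol and role, and the members, gene lists and alternatives were chosen with earlier results of these data known, so lists are described by counts and medians without a test. Values in each library are given for 12 members chosen by role, for the member with the smallest p in each of the 7 role lists, for called or non-overlapping genes, and for Cdkn1a, Ccnd1 and Myc. Alternatives were the edgeR exact test, DESeq2 1.42.0, limma 3.58.1 (voom with sample quality weights; no unweighted fit was run), a robust fit, other scaling factors and filters, a replicate block, marker covariates and leaving out libraries.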

Additional observations from a re-analysis of the deposited data

Results flagged for a closer look

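In 102 groups of 4 libraries (members, named genes and sums), 6 held a library far from the other 3 by Dixon's criterion, where chance gives about 1 in 20, or 5.1. All 6 were in MGL KO. Library 3 was high for Ccnb2, a B cyclin of mitosis (23.1 CPM, next 17.7). Library 2 was high for Cdk1 (22.5 CPM, next 14.9) and low for Rbl2 (29.6 CPM, next 33.2). Library 1 was low for Aurka (11.4 CPM, next 14.1), for Nusap1 (15.9 CPM, next 21.9) and for the sum of all 40 members (723 CPM, next 865).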

How the results depend on the processing

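In every alternative run, 0 of 40 members were called, and the median log2 fold change of the members stayed above 0, between 0.12 and 0.54. Of 552 recomputed fold changes of 24 named genes, 517 kept their sign and their side of the threshold. The count of genes called over the whole table was 7, and became 64 (exact test), 42 (exact test on all genes), 137 (DESeq2), 25 (limma-voom with sample quality weights, which changes test and weighting together), 2 (robust fit, no filter, or 2 libraries left out together), 14 (basal squamous covariate), 26 (skeletal muscle covariate) and 2 to 5 with 1 library left out. The count of other cell cycle genes called became 1 with the exact test on either gene set, weighted limma-voom and the muscle covariate, and 2 with DESeq2. Non-overlapping members numbered 1 with RLE factors or library size alone (6.05% and 5.13% of all genes). They numbered 11 without WT library 1 (9.27% of all genes) and 5 without KO library 1 (8.2%). Without any other single library they numbered 0 or 1, where the share over all genes was not computed. They numbered 11 without KO library 4 and WT library 1 together (14.8% of all genes), a setting chosen after seeing the data. In 100 in place of 250 promoter bases, 0% of mitosis members held an E2F site (all genes 1.09%) and 12% a CHR (S phase members 6.67%, all genes 7.42%).

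The replicate numbers are shared by the genotypes but name no common litter or day, and same-numbered libraries did not deviate together (correlations −0.14, −0.28, −0.14 and 0.08). With the replicate block 2 genes were called over the table and 0 members, with a member median of 0.34.

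Ccne1 changed sign with weighted limma-voom (−0.11), upper quartile factors (−0.0082), library size alone (−0.067), 10 counts in every library (−0.0037) and the basal covariate (−0.054). Without KO library 2 and WT library 3 together, the values were −0.26 for Ccne1, −0.13 for Mki67, −0.16 for Rrm2 and −0.028 for Foxm1, and the S phase median was 0.0012. Mki67 was −0.021 with library size alone, and Ccnd1 was −0.12 with the muscle covariate and −0.18 without KO library 4 and WT library 1. With 1 library left out, ranges crossed 0 for Mki67 (−0.12 to 0.31), Mcm5 (−0.0088 to 0.59), Rrm2 (−0.049 to 0.46), Ccne1 (−0.18 to 0.35), E2f1 (−0.26 to 0.054), Foxm1 (−0.077 to 0.18) and Ccnd1 (−0.22 to 0.25). The S phase median was 0.08 without WT library 3, 0.12 without WT library 4 and 0.39 without WT library 1. The causes were not tested.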

Other observations

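Values of 3 genes of the other cell cycle lists are added here, chosen after they were seen. Nek2, a centrosomal kinase, was at 38.3 CPM in KO library 4 and at most 15.8 CPM elsewhere, with a log2 fold change of 0.82 ± 0.47 SE (adjusted p = 0.653). The same library held 642 CPM of airway ciliated markers, all 8 of them highest there, against at most 20.6 CPM in the others, and the part of those cells in the Nek2 count was not tested. Cdkn2a, the locus of p16 and ARF, was at 7.49 CPM in KO library 2 and at most 0.446 CPM in the other 7, and did not pass the filter on low counts. Fen1, the flap endonuclease of the lagging strand, was listed at no more than 5 counts in any library. On GRCm39 its exons share 59% of their length with Gm10143 on the opposite strand, how the counting treated such reads is not given in the sources used here, and the listed value may not be its level.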
